A study of Mus musculus with 2 samples.

Results

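The genes described here encode adhesion G protein-coupled receptors and receptors for small transmitters and opioids. They were taken by symbol from a RefSeq gene table on GRCm38.p6 (mm10 is this assembly) as the autosomal protein-coding genes whose symbols start with Adgr, Htr and a digit, Drd, Chrm, Adra, Adrb, Oprd, Oprk, Oprm or Taar. This gave 75 of 20558 autosomal protein-coding genes, 25 adhesion receptor genes and 50 transmitter receptor genes, 15 of which form the Taar group. The rule used no measured value. It also took in Htr3a and Htr3b, which encode subunits of a ligand-gated ion channel and not G protein-coupled receptors. Adgrg2, Adgrg4 and Htr2c lie on the X chromosome and were left out by the rule.

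Dimethylation of histone H3 at lysine 9 (H3K9me2) was mapped by CUT&Tag. There, an antibody tethers a transposase, which cuts and tags the chromatin that carries the mark. Both groups were activated B cells of C57BL/6 mice, with 1 wild-type library (WT) and 1 library of the genotype given as jmjd1c B KO (KO). Jmjd1c is a jumonji-domain gene related to H3K9 demethylases. The activating stimulus, the Cre line and the ages of the mice are not given in the sources used here. Peaks were called from 33474010 WT tags and 34502392 KO tags. There were no replicates, so differences between the genotypes are between 2 libraries and were not tested. All intervals given are 95% intervals that take in counting error alone, and neighbouring peaks are not independent.

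H3K9me2 is a mark of silent chromatin, laid down over long stretches of genes that a cell type does not use. Adhesion receptors carry a large extracellular part that binds partners on other cells or in the matrix, and several guide synapse formation, whereas the Adgre receptors are known from macrophages, granulocytes and lymphocytes. The transmitter receptors pass signals of serotonin, dopamine, acetylcholine, adrenaline, opioid peptides and trace amines to G proteins, and are best known from neurons, muscle and, for most trace amine receptors, the olfactory epithelium. A peak list measures neither expression nor cell identity, so it cannot check the cell type. None of the 6 B cell, 4 T cell and 4 myeloid marker genes on the lists used here had a peak in either library, against 11.4% of all coding genes, and their windows spanned only 0.256, 0.0671 and 0.104 Mb.

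At 5 of these genes a peak reached into the sequence around a start site, and those sequences are shown with called peaks marked. The share of all promoter windows that a peak reached is not given here. Whether such peaks are more or less common at receptor genes was therefore not tested. The windows run from 250 bases before to 50 bases after a RefSeq start site of GRCm38.p6, 5′ to 3′. Capitals mark the bases inside a peak, in both libraries for Adgra3 (chr5:50058947-50059246, minus strand), Adgrl3 (chr5:81021343-81021642, plus strand) and Oprm1 (chr10:6788326-6788625, plus strand), in KO alone for Adgrl4 (chr3:151437632-151437931, plus strand) and in WT alone for Taar7b (chr10:23999689-23999988, plus strand). For Adgra3, Adgrl3 and Oprm1 the capitals are only the bases common to the WT and KO peaks. Bases inside a peak of 1 library alone are in small letters there.
Adgra3: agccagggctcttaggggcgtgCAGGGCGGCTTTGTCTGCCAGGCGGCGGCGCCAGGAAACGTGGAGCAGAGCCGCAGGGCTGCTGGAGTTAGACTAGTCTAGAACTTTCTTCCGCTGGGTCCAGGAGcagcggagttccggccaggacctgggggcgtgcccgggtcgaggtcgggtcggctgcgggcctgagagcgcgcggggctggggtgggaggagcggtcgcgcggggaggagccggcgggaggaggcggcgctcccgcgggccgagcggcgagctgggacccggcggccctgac
Adgrl3: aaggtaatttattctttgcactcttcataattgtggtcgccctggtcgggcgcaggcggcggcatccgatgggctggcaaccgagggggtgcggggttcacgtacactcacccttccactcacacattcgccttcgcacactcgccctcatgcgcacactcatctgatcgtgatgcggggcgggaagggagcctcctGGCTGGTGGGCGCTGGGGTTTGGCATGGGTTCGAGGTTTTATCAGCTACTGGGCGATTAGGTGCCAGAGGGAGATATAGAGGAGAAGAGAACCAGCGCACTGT
Oprm1: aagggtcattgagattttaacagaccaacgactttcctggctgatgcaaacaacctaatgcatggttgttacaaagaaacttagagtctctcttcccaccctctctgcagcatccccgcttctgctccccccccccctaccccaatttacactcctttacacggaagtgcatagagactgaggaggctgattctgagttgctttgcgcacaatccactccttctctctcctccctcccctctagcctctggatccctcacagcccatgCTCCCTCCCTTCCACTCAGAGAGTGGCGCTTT
Adgrl4: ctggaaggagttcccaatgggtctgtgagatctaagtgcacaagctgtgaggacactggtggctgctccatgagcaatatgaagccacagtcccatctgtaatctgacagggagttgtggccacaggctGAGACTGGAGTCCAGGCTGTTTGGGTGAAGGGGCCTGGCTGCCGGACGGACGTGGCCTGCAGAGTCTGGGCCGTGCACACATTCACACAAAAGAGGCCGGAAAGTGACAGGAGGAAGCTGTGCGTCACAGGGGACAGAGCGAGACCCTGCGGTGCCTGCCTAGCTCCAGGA
Taar7b: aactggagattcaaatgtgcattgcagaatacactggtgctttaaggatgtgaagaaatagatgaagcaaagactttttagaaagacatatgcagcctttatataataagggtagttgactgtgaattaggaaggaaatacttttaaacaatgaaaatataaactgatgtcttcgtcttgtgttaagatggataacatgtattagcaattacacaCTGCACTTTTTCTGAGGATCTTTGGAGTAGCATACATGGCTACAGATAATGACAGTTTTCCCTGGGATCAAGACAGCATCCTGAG
The table held start sites for 55 of the 75 genes, so peaks at the starts of the other genes could not be placed. The Adgra3 window held 34 CG dinucleotides and the Adgrl3 window 20, against a median of 7 over 32851 promoter windows of the table. The Adgrl4, Oprm1 and Taar7b windows held 8, 5 and 1. Adgrl3 and Oprm1 have 3 start sites each in the table, and the windows shown are of start sites that a peak reached. Peaks of both libraries also reached another Oprm1 window, chr10:6788320-6788619 with 4 CG dinucleotides, which is not shown.

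Of the 75 genes, 23 had a peak in either library in their window, which is the gene with 2 kb added at each end (30.7%, exact binomial interval 20.5 to 42.4%), against 11.4% of all autosomal protein-coding genes. A peak was present in both libraries at 18 genes, against 7.68% of all genes, in WT only at 1 gene (1.77%) and in KO only at 4 genes (1.98%). The other 52 genes had none. By library, 19 genes had a peak in WT, against 9.45% of all genes, and 22 in KO, against 9.67%. The gene windows held 72 WT and 79 KO peaks, or 11.8 (9.21 to 14.8) and 12.9 (10.2 to 16.1) per Mb. All autosomal coding windows held 8.71 and 8.90 per Mb. Peak numbers in KO were 1.10 times those in WT (0.787 to 1.53) for the receptor genes and 1.02 times (0.993 to 1.05) for all coding windows.

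Long genes carry peaks more often than short ones, so the receptor genes were also set beside genes of like window length. Of the 19 receptor genes with windows of 100 kb or more, 13 had a peak in either library (68.4%, 43.4 to 87.4%). Among all 2428 such genes the share was 39.4%. Of the 25 genes with windows of 20 to 100 kb, 5 had a peak (20%, 6.83 to 40.7%, against 8.32%), namely Adgrf2, Adgrf4, Drd2, Drd3 and Oprk1. Of the 31 genes under 20 kb, 5 had a peak (16.1%, 5.45 to 33.7%, against 7.15%). They were Htr1a and 4 genes of the Taar cluster. The intervals of both shorter classes take in the shares of all such genes. The 6 long genes without a peak in either library were Adgrd1, Adgre4, Adgrf5, Adgrl2, Chrm3 and Htr7. Chrm3, the muscarinic receptor gene of glands and smooth muscle, was the longest of them with a window of 489.6 kb.

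**Figure D1:**
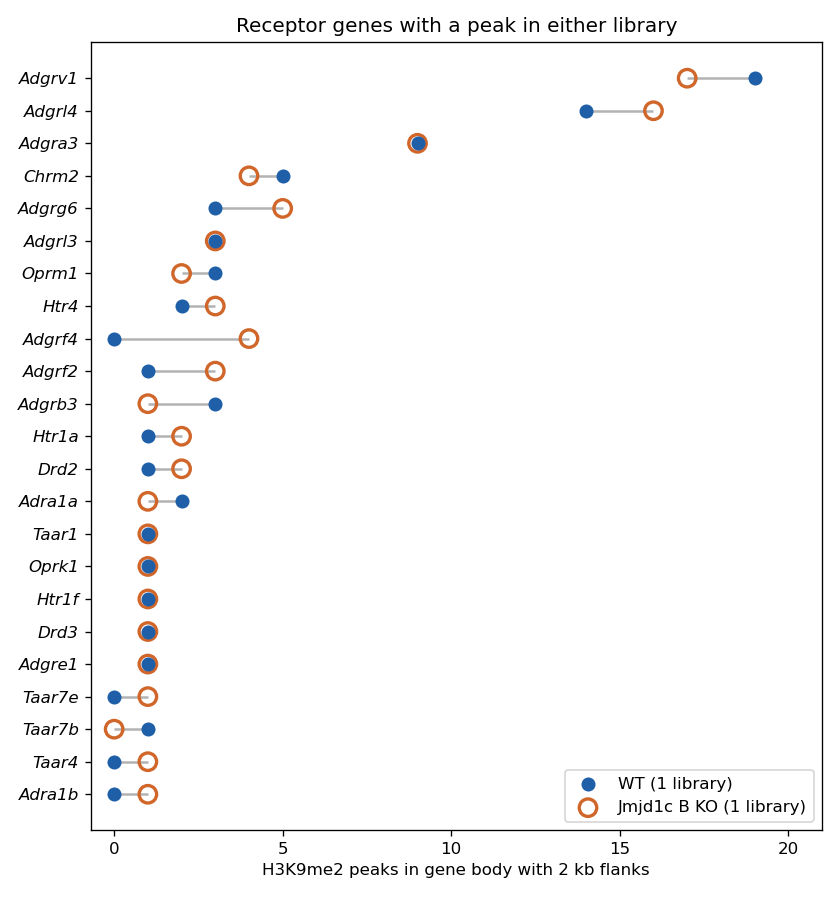
Numbers of H3K9me2 peaks in the gene body with 2 kb flanks (x axis) for the 23 receptor genes with a peak in either library (y axis), filled for the WT library and open for the KO library, with a grey line joining the values. Adgrv1, Adgrl4 and Adgra3 stand apart with 9 to 19 peaks in each library, and no other gene had more than 5.

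Adhesion receptor genes held most of the peaks, and 3 of them held 42 of the 72 WT peaks and 42 of the 79 KO peaks. They are Adgrv1, Adgrl4 and Adgra3, grouped after their values were seen. Adgrv1 encodes the very large adhesion receptor of hair cell stereocilia (chromosome 13 from 81095068 to 81633391), with 19 peaks in WT and 17 in KO. Adgrl4, an endothelial receptor gene of vessel growth (chromosome 3 from 151437882 to 151545081), had 14 and 16. Adgra3, an orphan receptor gene (chromosome 5 from 49959951 to 50058996), had 9 and 9. Leaving out the highest genes can only lower a density. Without these 3 genes the remaining 72 held 30 WT and 37 KO peaks, or 5.60 (3.78 to 7.99) and 6.90 (4.86 to 9.51) per Mb. The density of the receptor genes was thus above that of all coding windows with the 3 genes and below it without them, where the KO interval takes in the 8.90 per Mb of all coding windows. With the 3 genes kept, receptor windows of 100 kb or more held 65 WT and 64 KO peaks. Their densities were 13.6 (10.5 to 17.3) and 13.4 (10.3 to 17.1) per Mb, against 12.4 and 12.7 in all such windows. In windows of 20 to 100 kb they were 3.66 (0.997 to 9.37) and 9.15 (4.39 to 16.8), against 3.10 and 3.16. Under 20 kb they were 12.2 (2.51 to 35.6) and 20.3 (6.59 to 47.4), against 5.94 and 6.02.

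The peaks of the 3 genes were spread along the gene bodies, and 24 of 42 in each library overlapped a peak of the other. In Adgrl4, 10 of 14 WT and 10 of 16 KO peaks overlapped a peak of the other list. In Adgra3 it was 6 of 9 in each library, and in Adgrv1 8 of 19 and 8 of 17. Peaks covered 6.02% of the Adgrl4 window in WT and 6.57% in KO. The Adgra3 window was covered to 3.88% and 3.26% and the Adgrv1 window to 1.75% and 1.04%. The caller's fragment length, d, was 292 bp for WT and 189 bp for KO and sets the smallest peak, so covered shares are not comparable between the libraries.

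**Figure D2:**
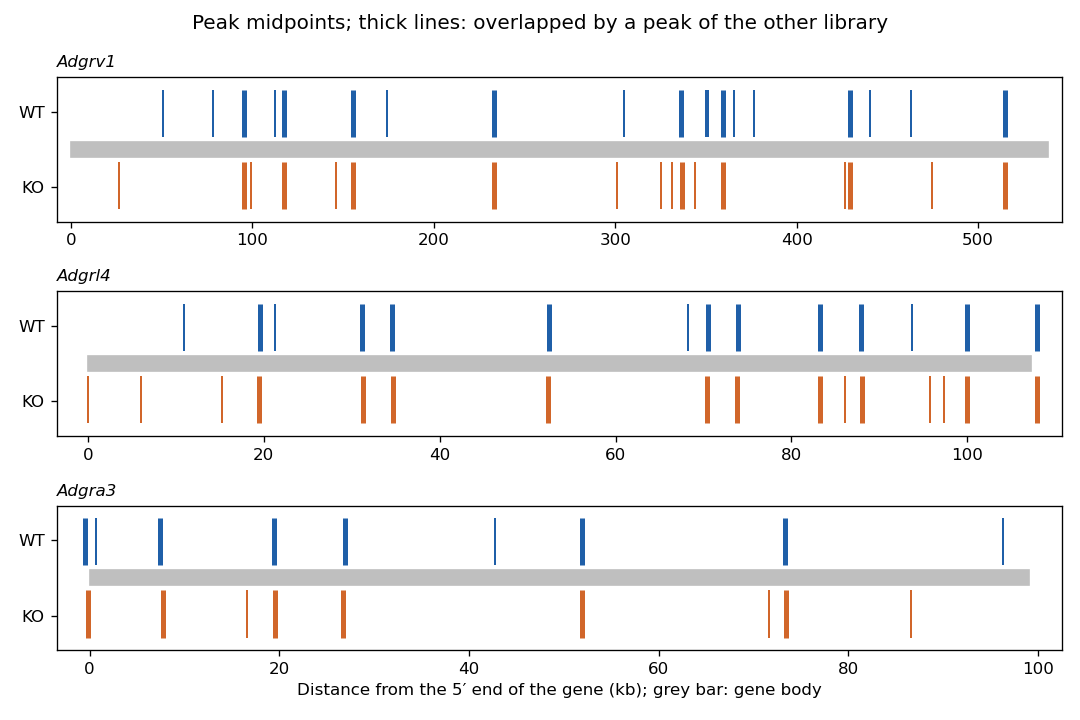
Midpoints of WT peaks (above) and KO peaks (below the grey gene body) along Adgrv1, Adgrl4 and Adgra3, in kb from the 5′ end of the gene, with thick lines for peaks that a peak of the other library overlapped. Of the 42 peaks in each library, 24 are thick, and the first Adgrl4 peak lies over the start site in KO and 10.9 kb into the gene in WT.

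Coverage around the peaks differed among these 3 genes. The authors' pileup, the number of extended tags over a peak, had a median of 51.4 in the Adgrl4 peaks of WT and 34.8 in those of KO, against 25.7 and 19.4 over all autosomal peaks. In Adgra3 the medians were 41.8 and 32.1. The authors' fold enrichment over the local background was low in the same peaks, with medians of 2.23 and 2.45 in Adgrl4 and 2.10 and 2.42 in Adgra3, against 2.70 and 3.06 over all autosomal peaks. Pileup divided by fold enrichment, an approximate local background, was 23.9 in WT and 14.7 in KO in Adgrl4 and 19.7 and 12.1 in Adgra3. Over all autosomal peaks its median was 9.52 in WT and 6.30 in KO, and its 90th percentile was 16.0 and 10.3. Both genes thus lay in stretches of high local coverage in both libraries. Adgrv1 peaks had a local background of 9.18 and 5.70, near the median of the list.

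The surroundings of these genes differed too. In the 500 kb on each side of its window, Adgrl4 had 75 WT and 80 KO peaks, so that it lay in a peak-dense stretch, with 125.9 and 143.9 peaks per Mb inside the window. Adgra3 had 8 and 1 peaks in its surroundings against 87.3 per Mb inside its window in both libraries. Adgrv1 had 20 and 18 around it against 35.0 and 31.3 per Mb inside. Over the genes with a peak, the surroundings held a median of 19 peaks in WT and 19 in KO, with a range of 0 to 75 and 0 to 80. Over the 52 genes without a peak the medians were 6.5 and 7.5, with ranges of 0 to 82 and 0 to 89. The Taar genes share 1 neighbourhood, so these medians do not rest on independent places. For 11 of the 52 genes neither library had a peak within 500 kb of the window. They were Adgrb2, Adgre4, Adgrf3, Adgrg1, Adgrg5, Adra2b, Adra2c, Drd4, Htr1d, Htr6 and Oprd1. Conversely, the serotonin receptor gene Htr1b had no peak in its window of 9.54 kb with 82 WT and 89 KO peaks in its surroundings, and its nearest peak was 13.5 kb away in WT and 13.6 kb in KO. At the density of its surroundings that window would hold 0.782 and 0.849 peaks. Adgrg7, an orphan adhesion receptor gene, had none in 75.4 kb, where the density of its surroundings would give 3.02 and 3.17.

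**Figure D3:**
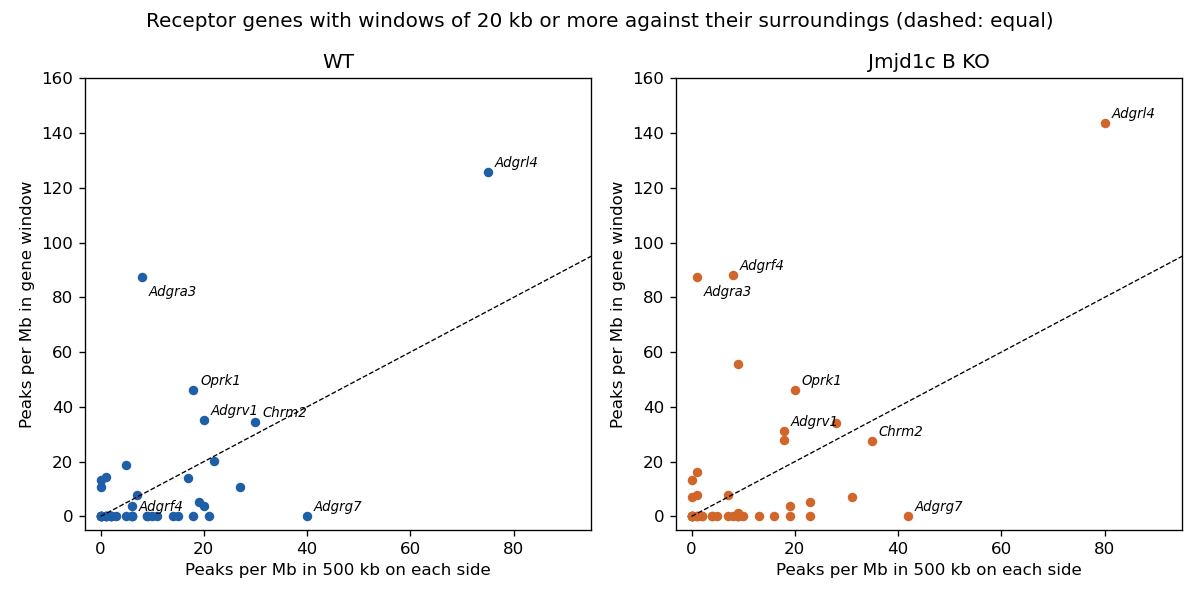
Peaks per Mb in the gene window (y axis) against peaks per Mb in the 500 kb on each side of it (x axis) for the 44 receptor genes with windows of 20 kb or more, leaving out Taar genes, in WT (left) and KO (right), with a dashed line of equality. Adgrl4 is high on both axes, Adgra3 and, in KO, Adgrf4 only inside the gene, and Adgrg7 only in its surroundings.

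The leukocyte Adgre genes and the Adgrl and Adgrb genes, grouped here as neuronal, were compared by peaks per Mb. Adgre1, which encodes the macrophage antigen F4/80, had 1 peak in each library, and these overlapped. Adgre4, a myeloid receptor gene, and Adgre5, which encodes the leukocyte receptor CD97, had none. The group thus held 3.87 peaks per Mb in both libraries (0.0979 to 21.5). Adgre5, the member most widely known from lymphocytes, had its nearest peak 15.4 kb away in WT and 15.5 kb in KO, and that peak had a pileup of 54547.7 in WT and 66281.3 in KO, far above the list medians. Duplicate tags were kept and no control library was used in the calling, and whether this site carries the mark was not tested.

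The Adgrl and Adgrb genes held 20 WT and 20 KO peaks, or 9.81 per Mb in both libraries (6.00 to 15.2), which was 2.54 times the density of the Adgre genes (0.406 to 105.2). Most of these peaks were in Adgrl4, which belongs to the group by symbol but is known from endothelium and not from neurons. Without Adgrl4, a choice made after its values were seen, the 6 remaining genes held 6 WT peaks (3.11 per Mb, 1.14 to 6.78) and 4 KO peaks (2.08 per Mb, 0.566 to 5.32). This was 0.806 times the Adgre density in WT (0.0977 to 37.1) and 0.537 times in KO (0.0532 to 26.5). A difference between neuronal and leukocyte adhesion receptor genes was therefore not detectable at these counts. With peaks of a q of 1e-05 or lower alone, the Adgre genes held 3.87 peaks per Mb in KO and the Adgrl and Adgrb genes 0.982, the opposite order, from 1 Adgre peak. With all peaks counted, the 7 genes would hold 17.7 WT and 18.1 KO peaks at the density of all coding windows, against the 20 and 20 found. The 6 genes without Adgrl4 would hold 16.8 and 17.1. Leaving out the gene with the most peaks lowers the counts, so no depletion can be read from the 6 genes.

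The single neuronal genes differed from each other. Adgrl3, a latrophilin gene whose product binds teneurins and FLRT proteins at synapses, had 3 peaks in each library over a window of 812.7 kb. The first of them overlapped between the libraries and lay over one of its start sites, with widths of 1259 bp in WT and 919 bp in KO. The other Adgrl3 peaks, 34.6 to 94.1 kb downstream of a start site, did not overlap. Adgrb3, whose product binds C1q-like proteins at synapses, had 3 peaks in WT and 1 in KO over 771.3 kb, and none overlapped. Adgrl1, Adgrl2, Adgrb1 and Adgrb2 had none in either library.

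**Figure D4:**
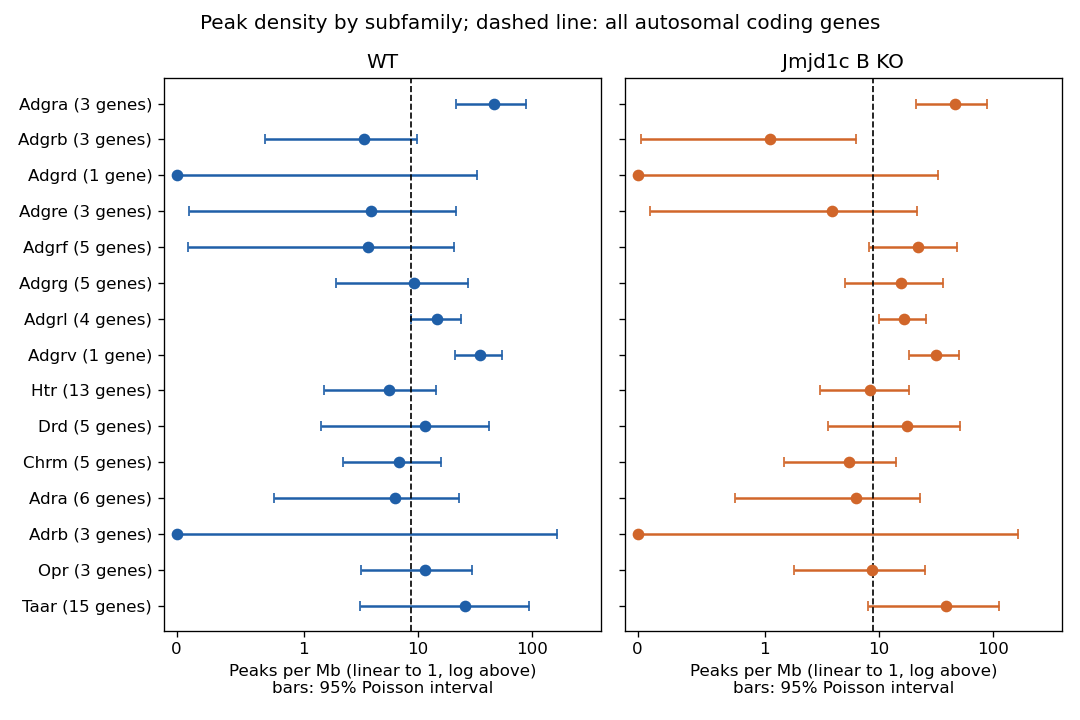
Peaks per Mb of gene window (x axis, linear to 1 and logarithmic above) for each subfamily (y axis) in WT (left) and KO (right), with 95% Poisson intervals for counting error and a dashed line at all autosomal coding windows, 8.71 and 8.90 per Mb. The intervals of Adgra and Adgrv lie above the line in both libraries, and each of those subfamilies owes its peaks to a single gene.

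Among the other adhesion receptor genes, Adgrg6, which is needed for Schwann cells to form myelin, had 3 WT and 5 KO peaks, and no peak overlapped one of the other library. The windows of Adgrf4 and Adgrf2 overlap on chromosome 17, so 1 KO peak belongs to both. Adgrf4 had 0 WT and 4 KO peaks and Adgrf2 1 and 3. Over the 5 Adgrf genes this made 1 WT and 6 KO peaks, a ratio of 6.00 with an interval of 0.728 to 276. The 5 KO peaks without a WT partner had fold enrichments of 2.90 to 3.96. The shared one lay at a gene end of Adgrf2, at chromosome 17 from 42743207 to 42744583 in WT and from 42743189 to 42744571 in KO. With widths of 1377 and 1383 bp it was the widest peak of all receptor gene windows in both libraries. Adgra1, Adgra2, Adgrd1, Adgrf1, Adgrf3, Adgrf5, Adgrg1, Adgrg3, Adgrg5 and Adgrg7 had no peak.

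Transmitter receptor genes outside the Taar cluster held 17 WT and 18 KO peaks over 35 genes, or 7.38 (4.30 to 11.8) and 7.82 (4.63 to 12.4) per Mb. These densities were near those of all coding windows. Peaks were found at 10 of the 35 genes (28.6%, 14.6 to 46.3%), against 11.4% of all coding genes. That 11.4% was not matched for window length, and long genes carry peaks more often. Of the serotonin receptor genes, Htr1a, which encodes an inhibitory receptor of serotonin neurons and their targets, had 1 WT and 2 KO peaks in a window of 8.44 kb. The overlapping peaks of Htr1a lay inside the gene, were 1192 bp wide in WT and 799 bp in KO, and had their midpoints 1.0 and 1.1 kb downstream of the start site. Htr1f had 1 peak in each library, and these overlapped, whereas Htr4 had 2 and 3 that did not. The other 10 Htr genes, Htr1b, Htr1d, Htr2a, Htr2b, Htr3a, Htr3b, Htr5a, Htr5b, Htr6 and Htr7, had none.

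Of the dopamine receptor genes, Drd2 and Drd3 had peaks. Drd3 had 1 peak in each library at the same place, with fold enrichments of 3.37 in WT and 4.86 in KO. No peak lay in the 500 kb on either side of Drd3 in either library. Drd2 had 1 WT peak and 2 KO peaks at different places, and Drd1, Drd4 and Drd5 had none. The windows of Drd2 and Drd3 were 71.8 and 76.0 kb long, and those of the genes without a peak 7.02 to 8.49 kb. Chrm2, the muscarinic receptor gene of the heart, had 5 WT and 4 KO peaks, of which 2 in each library overlapped. One overlapping pair lay near the start site, at 1.1 kb in WT and 1.0 kb in KO. Chrm1, Chrm3, Chrm4 and Chrm5 had no peak.

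Adrenergic receptor genes had few peaks and none in common. Adra1a, a receptor gene of vascular smooth muscle, had 2 in WT and 1 in KO, and Adra1b had 0 and 1. Adra1d, Adra2a, Adra2b, Adra2c, Adrb1 and Adrb3 had none. Among the opioid receptor genes, Oprm1, which encodes the receptor for morphine, had 3 WT and 2 KO peaks, and both KO peaks overlapped WT peaks. One of those lay over the start-site window shown above and the other 6.5 kb downstream of another start site. Oprk1, the dynorphin receptor gene, had 1 peak in each library, which shared only a few bases at positions 5594954 to 5594966 of chromosome 1. Oprd1 had none.

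The trace amine receptor genes form 1 cluster on chromosome 10, from 23918406 to 24111534 with the 2 kb flanks. The cluster held 5 WT and 5 KO peaks, or 25.9 per Mb in both (8.41 to 60.4). The 500 kb before it held 12 and 11 peaks and the 500 kb after it 11 and 12, or 22 to 24 per Mb, a range that lies within the interval of the cluster. In the nearest 100 kb there were 2 WT and 1 KO peaks before the cluster (20 and 10 per Mb) and 0 and 0 after it, so the nearer flanks held fewer peaks per Mb than the cluster, with intervals that overlap. Of the 5 peaks in each library 2 overlapped, 1 about 1 kb outside Taar1, the gene of a receptor for trace amines in the brain, and 1 between Taar1 and Taar2. The latter was 1067 bp wide in WT and 932 bp in KO. The other 3 peaks of each library had no partner in the other.

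Few of these peaks touched a gene body. In WT, 1 peak overlapped Taar7b and another the pseudogene Taar7c-ps. In KO, 1 overlapped Taar4 and 1 Taar7e. Counted by gene window with 2 kb flanks, the 15 genes held 2 WT and 3 KO peaks. Taar1 had 1 in each library, Taar7b had 1 and 0, and Taar4 and Taar7e had 0 and 1 each. The other 11 genes, Taar2, Taar3, Taar5, Taar6, Taar7a, Taar7d, Taar7f, Taar8a, Taar8b, Taar8c and Taar9, had none. Taar7 and Taar8 genes are close copies of each other, so tags there can be placed on the wrong copy and these assignments are uncertain. The peaks over gene bodies were weak, with pileups of 17.8 at Taar7b in WT and 13.2 at Taar4 and 17.1 at Taar7e in KO, below the list medians of 25.7 and 19.4. Taar4 and Taar7e were thus counted as KO only, and Taar7b as WT only, from 1 weak peak each.

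**Figure D5:**
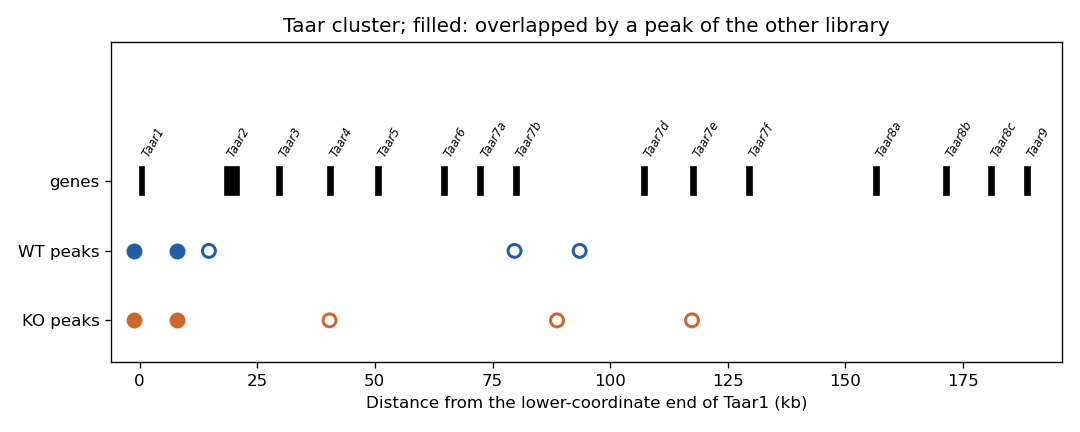
Taar genes (black bars) and midpoints of WT and KO peaks along the cluster, in kb from the lower-coordinate end of Taar1, filled where a peak of the other library overlapped. The 2 filled peaks of each library lie within 8 kb of Taar1, and no peak lies beyond Taar7e.

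Sharing between the libraries was close to that of other coding genes. Of the 72 WT peaks 36 overlapped a KO peak (50%, 38.0 to 62.0%), and of the 79 KO peaks 36 overlapped a WT peak (45.6%, 34.3 to 57.2%). Over all autosomal coding windows the shares were 45.5% and 44.7%. The peaks in Adgrv1, Adgrl4 and Adgra3 were overlapped to 57.1% in each library (41.0 to 72.3%) and those of the other genes to 40% (22.7 to 59.4%) in WT and 32.4% (18.0 to 49.8%) in KO. Of 18 genes with a peak in both libraries, 13 had at least 1 overlapping peak, and Adgrb3, Adgrg6, Adra1a, Drd2 and Htr4 had none. The same count by gene is not given here for all coding genes with a peak in both libraries. A lack of overlap is therefore not shown to be particular to the named genes. Receptor peaks above the median significance of their list were overlapped to 61.8% in WT (21 of 34, 43.6 to 77.8%) and 57.4% in KO (27 of 47, 42.2 to 71.7%). Those at or below it were overlapped to 39.5% (15 of 38, 24.0 to 56.6%) and 28.1% (9 of 32, 13.7 to 46.7%). The intervals overlap in both libraries. This split is not given here for all coding windows, so it is not shown to be particular to receptor peaks.

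By gene, 7 of the 23 genes with a peak had equal numbers in both libraries, 6 had more in WT and 10 more in KO. The same split is not given here for all coding genes, of which 364 had a peak in WT only and 408 in KO only. A lean of the receptor genes towards KO cannot be read from it. The largest difference was 4 peaks, at Adgrf4, where the exact Poisson intervals of the counts, 0 to 3.69 in WT and 1.09 to 10.2 in KO, overlapped. The receptor peaks had a median pileup of 28.5 in WT and 20.8 in KO against 25.7 and 19.4 over all autosomal peaks. Their median widths were below those of the lists, 420 against 488 bp in WT and 338 against 377 bp in KO. Their highest pileup was 70.4 in WT and 45.2 in KO, both in Adgrl4, so none was as high as the site near Adgre5.

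Genes that work with these receptors were counted in the same windows, and the share of all coding genes with a peak in either library, 11.4%, applies to each count below. Of 16 G protein alpha subunit genes only Gnai1 had peaks, 3 in WT and 5 in KO. Of 10 adenylyl cyclase genes, Adcy1 (5 and 4), Adcy2 (8 and 5) and Adcy8 (3 and 11) had peaks. Of 4 phospholipase C beta genes, which act below Gq-coupled receptors, Plcb1 had 17 and 28 peaks and Plcb4 9 and 5. None of 8 receptor kinase and arrestin genes, 3 opioid peptide genes or 18 leukocyte G protein-coupled receptor genes, among them Cxcr4, Cxcr5, Ccr7 and S1pr1, had a peak. The windows of these lists were short, 0.572 Mb for the kinases and arrestins, 0.0364 Mb for the opioid peptides and 0.293 Mb for the leukocyte receptors. Of the genes with peaks in these signalling lists, Gnai1 had the shortest window, 99.3 kb. Among all coding genes with windows of 100 kb or more, 39.4% had a peak.

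Of 11 genes for partners of adhesion receptors, 5 had a peak, and the list had a density of 6.47 (WT) and 5.62 (KO) per Mb, against 8.71 and 8.90 in all coding windows. The teneurin genes are very long, with windows of 743.9 to 1301 kb. The teneurin genes Tenm3 (15 and 12), Tenm2 (2 and 3) and Tenm4 (1 and 1) were among them, as were Flrt2 (5 and 3) and Flrt3 (0 and 1), whereas Cd55, the CD97 ligand gene, had none. Of 16 genes for transmitter synthesis, storage and uptake, Slc5a7, the choline transporter gene, had 1 peak in each library. Slc6a2, the noradrenaline transporter gene, and Tph2, the enzyme gene of neuronal serotonin synthesis, had 0 in WT and 2 in KO each.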

How the data were processed

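The data were 2 peak lists for H3K9me2 by CUT&Tag in activated B cells, 1 WT and 1 KO, grouped by the genotype in the labels. For each library on its own, the authors ran MACS2 2.2.7.1 for broad peaks at a q of 0.01, per the file headers, with all duplicate tags kept, no control library, paired-end mode off and a local background window of 10000 bp. The submitters' processing notes name Bowtie2 2.4.2 and the mm10 build. Per the file headers, d, the fragment length to which tags are extended, was 292 bp (WT) or 189 bp (KO). Since tags are extended to d, it affects width, pileup and q. Without a control, sites that gather tags for other reasons than the mark remain in the lists. Pileup, as deposited, is coverage signal without scaling across libraries. The authors' p-value and q-value columns hold −log10 values, and their fold enrichment is a ratio of pileup over local background. These were used only within a list.

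Positions of genes were read from the RefSeq table (GRCm38.p6), with 363 genes of scaffolds and patches left out, told apart by a break in the order of starts. Strand came from the RefSeq promoter table. Exons and introns were not used here. A peak belonged to a gene when it overlapped the gene body with 2 kb flanks by at least 1 bp, and was counted once per group. Counts carry exact Poisson, shares exact Clopper-Pearson and ratios exact binomial-based intervals, for counting error only. No p-value was computed, since each genotype had 1 library. The genes, lists, comparisons and alternatives were chosen with earlier results of these data known. Named genes were the receptor genes, apart from 1 that is not reported here by name, the list genes with a peak, and peaks within 1 kb of a gene end or among the 5 widest per library. The counting was tested on simulated data, where the numbers planted in 200 of 20558 gene windows were recovered in 200. Python 3.11.15, pandas 2.3.3 and scipy 1.17.1 were used.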

Additional observations from a re-analysis of the deposited data

Results flagged for a closer look

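Htr2c, the serotonin receptor gene left out because it lies on the X chromosome, held 5 WT and 4 KO peaks in its window of 238.8 kb. These counts are in data outside the comparisons and are above 3.69, the upper exact Poisson bound of a count of 0. That bound does not take window length into account. All autosomal coding windows of 100 kb or more held 12.4 (WT) and 12.7 (KO) peaks per Mb, and 39.4% of those genes had a peak. The other X-linked genes, Adgrg4 and Adgrg2, had 0 WT peaks, with 1 KO peak at Adgrg4 and 0 at Adgrg2.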

How the results depend on the processing

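The 11 values tried, namely peak numbers of the receptor genes, genes with a peak, shares of overlapped peaks, densities of the 2 adhesion receptor groups and peaks in the Taar cluster, moved by no more than 1.5 times, or stayed in their intervals, under 5 alternatives. These were widening KO peaks by the 103 bp difference in d, gene bodies with 10 kb or no flank, assignment by midpoint and merging peaks within 5 kb. Dropping peaks with pileups from 100 upwards could not change them, since no peak of the receptor windows or the Taar cluster had one. At a q of 1e-05 or lower, the genes held 13 WT and 6 KO peaks, and 8 genes had a peak in either library. Of these peaks, 2 of 13 in WT (15.4%) and 2 of 6 in KO (33.3%) overlapped. The Adgrl and Adgrb genes then had densities of 2.94 (WT) and 0.982 (KO) per Mb, the Adgre genes 0 in WT and 3.87 in KO, which turned the direction between the groups in KO, and the Taar cluster 0 in WT and 0 in KO. With peaks at least 1 kb wide, the genes held 6 WT and 3 KO peaks, and 6 genes had a peak. Of these peaks, 1 of 6 in WT (16.7%) and 1 of 3 in KO (33.3%) overlapped. The Adgrl and Adgrb genes then had 0.982 per Mb in WT and 0.491 in KO, the Adgre genes 0 in both, and the Taar cluster 1 peak in WT and 0 in KO. Both limits leave few peaks, and d affects q and width. The shares of all coding genes and their peaks at these limits are not given here, so the values have no background. A reciprocal overlap of 50% lowered the overlapped shares to 37.5% of WT and 34.2% of KO peaks. Without Adgrl4, chosen after seeing the data, the Adgrl and Adgrb density was 3.11 per Mb in WT and 2.08 in KO. No paired analysis was possible because each genotype had 1 library and the labels give no replicate numbers.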
